A study of Homo sapiens with 29 samples.

Results

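OLR1, NKAIN4 and SLCO4A1 are genes of cell surface proteins whose RNA differed by a very large amount between erlotinib and no treatment in PC9, a lung adenocarcinoma cell line with a mutant EGFR. The 3 genes were picked by that very difference, from 35579 genes summed over their transcripts, of which 9085 passed a filter on low values (a mean of at least 10 TPM, the length-scaled share of transcripts in a library, over all libraries). All 3 passed, NKAIN4 through the libraries with erlotinib and SLCO4A1 through those without. Their levels with erlotinib and without are therefore given as a description, with no test. The comparison that was tested in them was the one between erlotinib with and without an AXL-activating antibody, and it shares its erlotinib libraries with the comparison that chose them.

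RNA came from 10 lines of PC9. PAR is the parental line and KO is an AXL knockout of it made with CRISPR-Cas9. The other lines are knockout cells transduced with lentivirus carrying AXL, which was wild-type (WT), kinase-dead (KD) or changed from tyrosine to phenylalanine at a single site (Y634F, Y643F, Y698F, Y726F, Y750F and Y821F). They were sorted as populations, so none is known to be a single clone. By the paper's supplement, only a minority of their cells express AXL. Each line was untreated (UT), given 1 µM erlotinib, an EGFR kinase inhibitor (E), or given erlotinib with 300 ng/mL of the antibody AF154 (EA), for 24 h. There were 29 libraries, 10 UT, 10 E and 9 EA, with 1 library per line and treatment, and EA in KO was not analysed here. The lines served as replicates, so a p-value measures the spread between lines that carry different receptors, and nothing says how much 2 cultures of one line would differ. TPM is scaled to the same total in every library, so read depth is unknown.

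OLR1 encodes LOX-1, a C-type lectin-like receptor that binds and takes up oxidized low-density lipoprotein and is best known from endothelial cells and macrophages. NKAIN4 belongs to a small family of membrane proteins that interact with the beta subunit of the sodium pump (Na,K-ATPase). SLCO4A1 encodes OATP4A1, a transporter of organic anions such as thyroid hormone and prostaglandin. Erlotinib blocks EGFR and with it the ERK cascade, whose feedback genes are switched on by ERK itself.

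In GENCODE release 29 on GRCh38, OLR1 (ENSG00000173391) lies on the minus strand at chr12:10158301-10172138. NKAIN4 (ENSG00000101198) lies on the minus strand at chr20:63240784-63272694. SLCO4A1 (ENSG00000101187) lies on the plus strand at chr20:62642445-62685785, 555.0 kb from NKAIN4. The deposited table held 11 transcripts of OLR1, 9 of NKAIN4 and 9 of SLCO4A1. The stretches printed here are from the GENCODE transcripts and show where some forms of OLR1 and SLCO4A1 part, since the levels of single transcripts rest on such stretches. For OLR1, each line holds the last 30 bases of an exon followed, in capitals, by the first 15 bases of the exon it is joined to. OLR1-201 has 6 exons and 273 codons. OLR1-211 leaves out exon 5 (chr12:10160347-10160462, 116 bases) and ends after 189 codons, and OLR1-203 leaves out exon 4 (chr12:10160786-10160925, 140 bases) and ends after 181.
OLR1-201, exon 4 to exon 5: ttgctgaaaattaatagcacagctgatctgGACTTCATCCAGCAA
OLR1-211, exon 4 to the last exon: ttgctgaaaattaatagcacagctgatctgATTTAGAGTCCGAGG
OLR1-203, exon 3 to exon 5: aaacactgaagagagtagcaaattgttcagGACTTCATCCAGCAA

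NKAIN4-201 and NKAIN4-203 begin at different first exons, 18042 bases apart, at chr20:63272582-63272694 and chr20:63254397-63254540. The start codon of NKAIN4-203 is in its own first exon and opens a reading frame of 208 codons, while NKAIN4-201 starts at what is codon 63 of that frame and has 146 codons.

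SLCO4A1-201 has 12 exons and 722 codons. SLCO4A1-206, annotated as a processed transcript, begins inside exon 7 of SLCO4A1-201. On the other strand, exons of SLCO4A1-AS1 cover 346 exonic bases of SLCO4A1. The stretch is the part of exon 7 that the antisense gene covers, chr20:62666385-62666575, plus strand, and capitals mark the bases that SLCO4A1-206 shares.
SLCO4A1-201: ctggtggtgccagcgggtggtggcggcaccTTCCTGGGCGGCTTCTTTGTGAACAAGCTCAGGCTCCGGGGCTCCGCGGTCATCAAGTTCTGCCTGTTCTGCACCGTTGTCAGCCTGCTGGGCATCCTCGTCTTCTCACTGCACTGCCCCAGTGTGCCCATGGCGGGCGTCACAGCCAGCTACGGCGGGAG
SLCO4A1-AS1 was not analysed here. Neither was FLJ16779, an antisense gene whose exon covers all 144 bases of the first exon of NKAIN4-203. Strand handling is not stated, so reads of these genes and of their antisense partners cannot be told apart. TMEM52B overlaps the span of OLR1 on the other strand but shares 0 exonic bases with it.

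The drug and the labels were checked once over the series. All 7 ERK feedback genes past the filter fell with E (for example FOSL1, from 223 ± 19.8 to 18.3 ± 4.67 TPM, SD, n = 10), by a median of -3.00 on the log2 scale against -0.04 over all genes, of which 42.6% were called lower, and 5 of the 7 were under 10 TPM on average with E, so that they passed the filter through the libraries where they were high. AXL was 92.4 TPM in KO untreated and 79.3 TPM in KO with E, and between 217 and 852 TPM in the 27 other libraries. The 8 epithelial markers summed to between 8723 and 12098 TPM per library.

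The level of OLR1 was about 10-fold higher with E than without in each line. Untreated, OLR1 was 5.50 TPM in PAR, 18.4 in KO, 16.04 in WT, 20.3 in KD, 27.2 in Y634F, 23.0 in Y643F, 22.2 in Y698F, 17.3 in Y726F, 18.3 in Y750F and 18.3 in Y821F. With E it was 61.9 TPM in PAR, 218 in KO, 167 in WT, 180 in KD, 204 in Y634F, 191 in Y643F, 195 in Y698F, 181 in Y726F, 193 in Y750F and 166 in Y821F. With EA it was 61.1 TPM in PAR, 144 in WT, 161 in KD, 205 in Y634F, 192 in Y643F, 201 in Y698F, 156 in Y726F, 201 in Y750F and 189 in Y821F. The E and EA levels did not overlap with the untreated ones, and even PAR with E stood above every untreated line. The E to UT ratio of TPM had a median of 9.73 and ran from 7.50 in Y634F to 11.9 in KO. In bulk RNA, a different number of cells that hold the transcript and a different amount per cell cannot be told apart.

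PAR held the lowest OLR1 level under every treatment, and its ratio of 11.2 between E and UT was inside the range of the other lines. The next line was 2.91 times as high untreated (WT), 2.68 times with E (Y821F) and 2.36 times with EA (WT). Among the 9 other lines the highest level was 1.70 times the lowest untreated and 1.32 times with E. Between E and EA, levels within a line differed by at most 0.22 on the log2 scale, which is given for scale. Since each line had 1 library per treatment, the order of the 9 lines other than PAR cannot be told from the spread of cultures. By design PAR is the one line that was never knocked out. KO, which like PAR was not given the AXL lentivirus, held 18.4 TPM of OLR1 untreated and 218 TPM with E, within the range of the transduced lines untreated and above all of them with E. Which difference between PAR and the other lines goes with its OLR1 level was not tested.

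NKAIN4 was close to the lower end of detection in untreated cells and many times higher with E. Untreated, it was 1.20 TPM in PAR, 2.38 in KO, 0.777 in WT, 2.34 in KD, 4.32 in Y634F, 3.12 in Y643F, 1.03 in Y698F, 1.47 in Y726F, 1.63 in Y750F and 1.21 in Y821F. With E it was 31.1 TPM in PAR, 28.5 in KO, 40.2 in WT, 42.8 in KD, 42.6 in Y634F, 51.0 in Y643F, 50.5 in Y698F, 45.6 in Y726F, 51.2 in Y750F and 52.7 in Y821F. With EA it was 17.6 TPM in PAR, 37.0 in WT, 43.6 in KD, 56.3 in Y634F, 39.7 in Y643F, 40.4 in Y698F, 47.6 in Y726F, 50.1 in Y750F and 32.9 in Y821F. All E and EA levels lay above all untreated levels. The E to UT ratio ranged from 9.87 in Y634F to 51.7 in WT, a wider range than that of OLR1, and its ends fell on the lines with the highest and the lowest untreated level. KO and PAR had the lowest levels with E, and the 8 transduced lines lay between 40.2 and 52.7 TPM. Untreated, KO and PAR lay within the range of the transduced lines. Each level is 1 library, and a difference by transduction was not tested.

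SLCO4A1 went the other way and was the gene with the largest fall of all 9085. Untreated, it was 48.5 TPM in PAR, 61.0 in KO, 48.6 in WT, 57.0 in KD, 54.2 in Y634F, 54.0 in Y643F, 64.6 in Y698F, 58.6 in Y726F, 51.1 in Y750F and 54.5 in Y821F. With E it was 2.38 TPM in PAR, 2.74 in KO, 4.02 in WT, 2.93 in KD, 3.09 in Y634F, 3.23 in Y643F, 4.18 in Y698F, 3.22 in Y726F, 3.56 in Y750F and 2.69 in Y821F. With EA it was 5.11 TPM in PAR, 3.64 in WT, 2.80 in KD, 4.92 in Y634F, 6.36 in Y643F, 5.90 in Y698F, 3.81 in Y726F, 3.29 in Y750F and 5.46 in Y821F. Every untreated library stood above every library with E or EA. The UT to E ratio had a median of 17.9 and ran from 12.1 in WT to 22.2 in KO. Untreated levels were alike across lines, with a highest level 1.33 times the lowest.

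**Figure D1:**
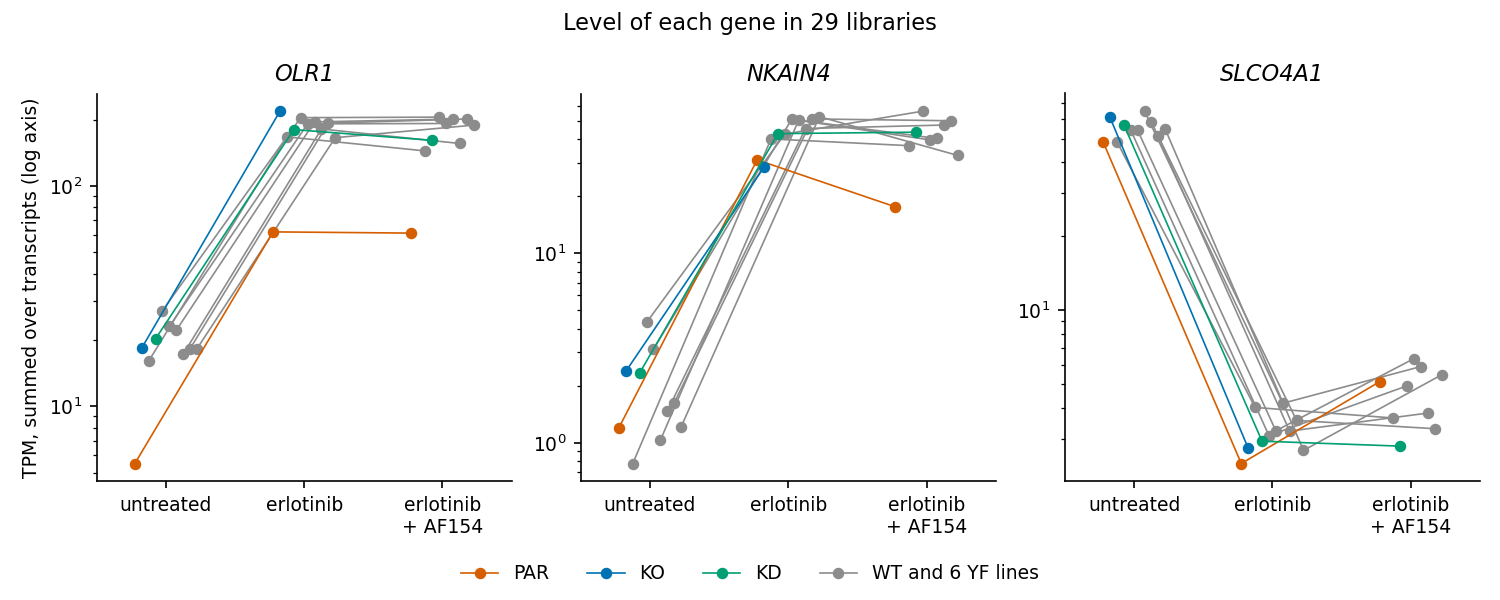
TPM of OLR1, NKAIN4 and SLCO4A1 (log axes) in the 29 libraries, by treatment. Each point is 1 library and lines join the libraries of one cell line. OLR1 and NKAIN4 with erlotinib lie above all untreated points and SLCO4A1 below them, and PAR is lowest for OLR1 under every treatment.

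Over the 10 lines the mean change from UT to E on the log2(TPM + 1) scale was 3.19 ± 0.19 (SD) for OLR1, 3.98 ± 0.59 for NKAIN4 and -3.75 ± 0.22 for SLCO4A1. This scale understates the change of a gene with low values, and with a pseudocount of 0.1 the means were 3.26, 4.56 and -4.08. SLCO4A1 ranked first among the falls, followed by FOSL1 (-3.58), an AP-1 transcription factor that responds to ERK. NKAIN4 ranked second among the rises, after BMF (3.99), a BH3-only promoter of apoptosis, and before HEG1 (3.82). OLR1 ranked 12 among the rises, after TAGLN (3.21) and before MYL9 (3.17), both of the contractile cytoskeleton. The share of all 9085 genes whose E libraries all lay above the untreated ones was 14.9%, and the share whose E libraries all lay below was 21.6%, so a lack of overlap by itself is common in these data. Between EA and UT the shares were 12.3% above and 18.4% below.

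The addition of AF154 to erlotinib was asked of the 8 lines other than KD and KO, called competent here, to see whether an activated receptor shifts these genes once erlotinib is present. In the transduced lines among them only a minority of cells express AXL, so a shift in those cells would show only in part. None of the 3 genes passed the test (limma across all 9085 genes blocked on the line, with adjustment after Benjamini and Hochberg). Of all genes, 1.88% were called higher and 0.473% lower in EA, and the median change was 0.02. OLR1 went from 170 ± 45.7 TPM with E to 169 ± 48.8 with EA (SD, n = 8), a log2 change of -0.02 with a 95% interval from -0.12 to 0.08 (limma, adjusted p = 0.855), and it was higher in 5 of 8 lines. NKAIN4 was 45.6 ± 7.39 TPM with E and 40.2 ± 11.9 TPM with EA, a change of -0.23 with an interval from -0.47 to 0.01 (limma, adjusted p = 0.264), and higher in 2 of 8 lines. Its lowest difference was -0.79 in PAR and its highest 0.39 in Y634F.

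SLCO4A1 came nearest to a call, in a comparison that reuses the E libraries that helped to choose it. A choice by low E levels favours higher EA levels, and for NKAIN4, chosen by high ones, lower EA levels. The SLCO4A1 level went from 3.29 ± 0.615 TPM with E to 4.81 ± 1.12 with EA (SD, n = 8), a log2 change of 0.43 with an interval from 0.13 to 0.72. The adjusted p was 0.111 (limma), and the level was higher in 6 of 8 lines. With only the protein-coding transcripts summed, the adjusted p was 0.0453 for a change of 0.38, and over the 17 alternatives fitted with limma the adjusted p ran from 0.0453 to 0.304. A two-sided exact sign-flip test of its 8 differences, unadjusted, gave p = 0.0391, where the smallest p that 8 lines allow is 0.00781. By limma, 20.9% of all 9085 genes had an unadjusted p under 0.05 in this comparison. The EA to E ratio was 2.15 in PAR, 2.03 in Y821F and 1.97 in Y643F, and it was under 1 in WT (0.906) and Y750F (0.926). In KD, with 1 library of each kind, the ratio was 0.954. Even the highest EA level, 6.36 TPM in Y643F, was under the lowest untreated one, and SLCO4A1 remained between 8.50 and 20.4 times lower in EA than untreated. In KD the OLR1 change between E and EA was -0.16 and that of NKAIN4 was 0.03, and whether KD differs from the competent lines was not tested.

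**Figure D2:**
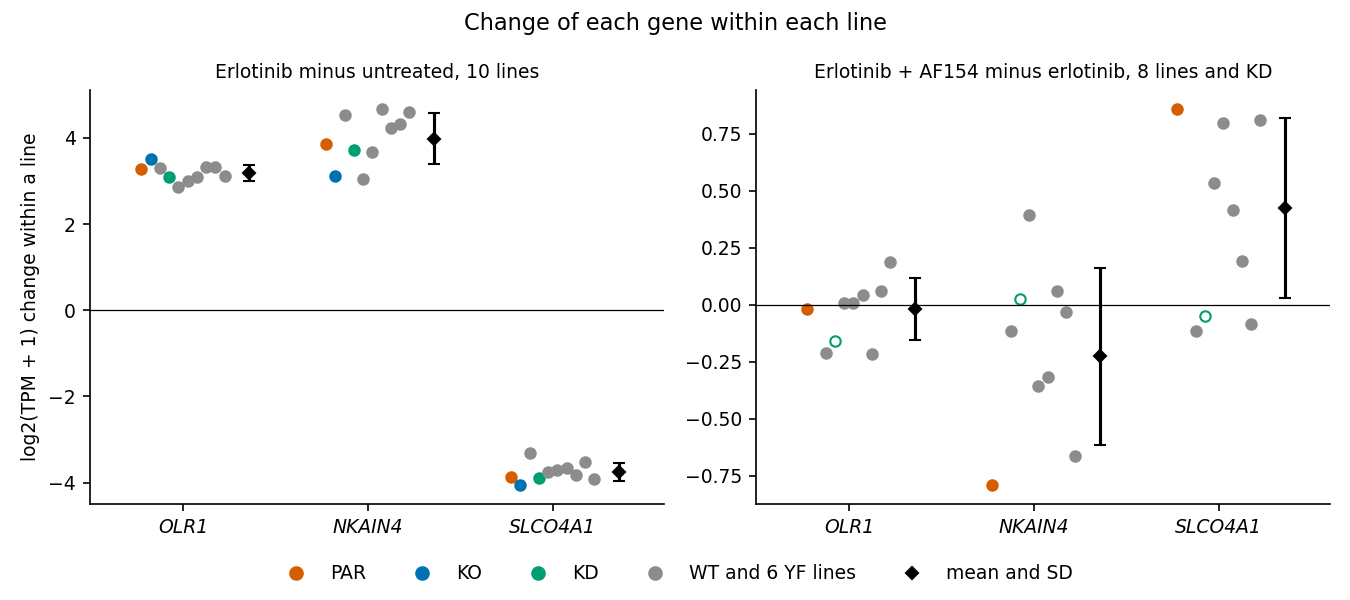
Change of each gene within each line on the log2(TPM + 1) scale, from untreated to erlotinib (left, 10 lines) and from erlotinib to erlotinib with AF154 (right, 8 lines, with KD as an open circle that is not in the mean). Points are lines and diamonds with bars are means and SD. The changes on the left lie between 2.86 and 4.66 for the genes that were higher and between -4.05 and -3.30 for SLCO4A1, while those on the right lie between -0.79 and 0.86.

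Most OLR1 RNA was assigned to the full-length form in every treatment. Levels of single transcripts are the authors' estimates of how reads divide among forms that share exons. OLR1-201 was 13.1 ± 4.17 TPM untreated, 127 ± 30.7 with E and 130 ± 34.5 with EA, which is 70.4%, 72.9% and 77.7% of the gene on average. OLR1-211, the form without exon 5, was 1.29 ± 0.762 TPM untreated and 11.1 ± 3.84 with E, and its share was 7.77% and 6.28%. OLR1-203, the form without exon 4, reached at most 2.52 TPM with E and was listed at 0 in 2 of the 10 E libraries. The shares of the full-length form and of the form without exon 5 overlapped between UT and E. OLR1-207, a shorter coding transcript that begins and ends inside the span of OLR1-201, was 18.5 ± 8.20 TPM with E and 9.70 ± 7.73 TPM with EA over the 8 competent lines, and it was lower with EA in 7 of them. It was picked out after its values were seen and was not tested, and its range of 0 to 24.5 TPM with EA overlapped that of 5.397 to 30.3 TPM with E.

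NKAIN4 RNA was assigned to NKAIN4-201 and NKAIN4-203, with their different first exons, and to forms that hold neither of these exons. NKAIN4-202, a coding form that holds neither, took 6.07% of the gene on average with E. With E, NKAIN4-201 was 12.6 ± 3.01 TPM and NKAIN4-203 was 11.7 ± 2.67 TPM (SD, n = 10), 28.8% and 27.1% of the gene. With EA the same forms were 11.3 ± 2.81 and 10.6 ± 2.77 TPM. Untreated, NKAIN4-201 reached at most 1.23 TPM and was listed at 0 in 2 libraries, and NKAIN4-203 lay between 0.0462 and 1.03 TPM, so the untreated shares, from 0% to 51.6% and from 2.84% to 100%, rest on very low values. With E, every library held more of each form than any untreated library did. NKAIN4-207, a short processed transcript of the 3′ part of the gene, took another 17.7% with E.

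SLCO4A1-201, which encodes the whole transporter, was 32.1 ± 3.904 TPM untreated and 1.59 ± 0.662 TPM with E, 58.1% and 49.3% of the gene. SLCO4A1-206 was 13.3 ± 2.32 TPM untreated and 0.679 ± 0.278 TPM with E, 24.0% and 21.4% of the gene. Both forms were lower with E in every line. In KO with E, SLCO4A1-201 was listed at 0 while SLCO4A1-202, which lacks the first exon, was 1.81 TPM, and SLCO4A1-202 was listed at 0 in the other 9 E libraries. With EA, SLCO4A1-201 was 2.24 ± 0.856 TPM (SD, n = 9) and was higher than with E in 6 of the 8 competent lines.

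**Figure D3:**
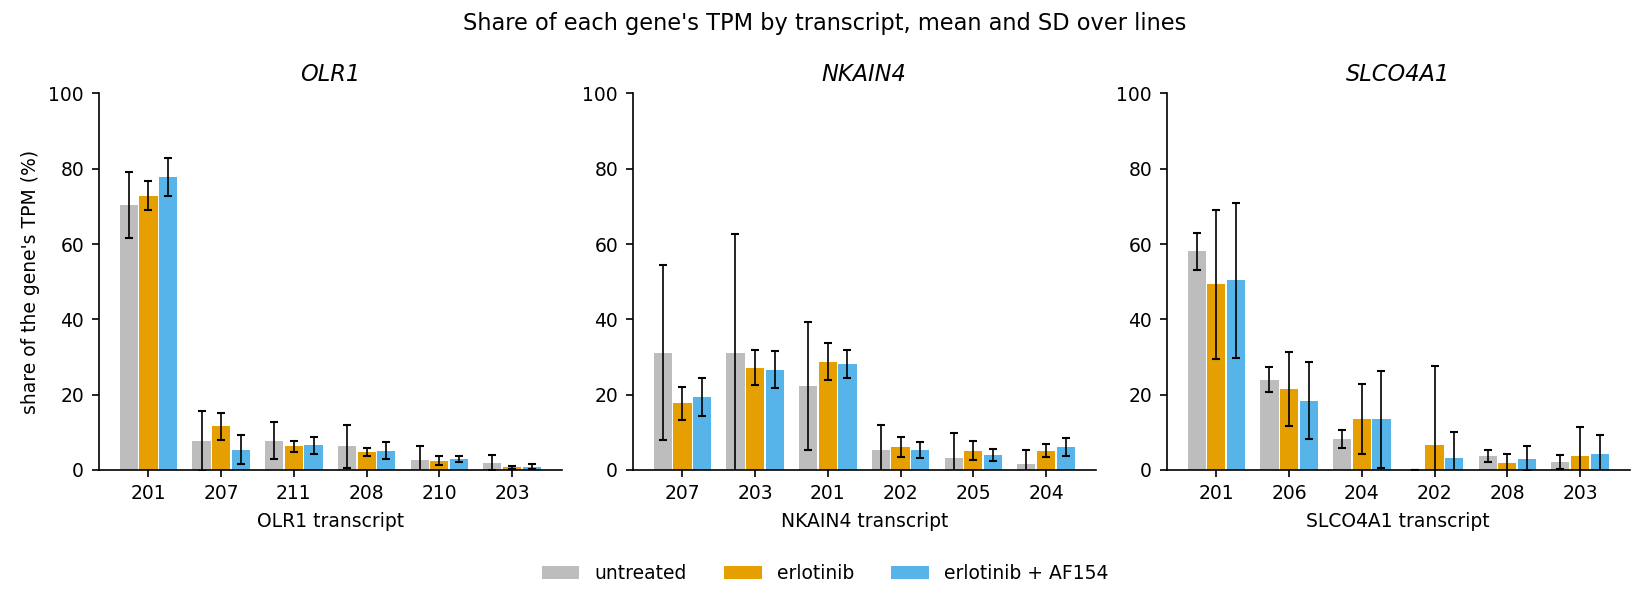
Share of the TPM of each gene assigned to its 6 leading transcripts (percent, mean and SD over 10 UT, 10 E and 9 EA libraries). OLR1-201 holds 70.4% to 77.7% of OLR1, NKAIN4 is split mostly among 3 transcripts, and SLCO4A1-201 holds 58.1% untreated and 49.3% with erlotinib, with a wide spread at the low levels left.

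The genes nearest to OLR1 were also higher with E. Within 500 kb of it 4 other genes passed the filter, of which 3 rose and 1 fell, with a median change of 1.35 on the log2 scale, where 36.4% of all genes were called higher and 42.6% lower. TMEM52B, which encodes a transmembrane protein and overlaps OLR1 on the opposite strand, rose from 3.17 ± 1.08 to 19.1 ± 5.28 TPM (SD, n = 10), a log2 change of 2.26 ± 0.11 (SE; limma, adjusted p = 6.52e-11). It passed the filter only through the treated libraries, where it was high, and among the 3 neighbours that were above 10 TPM on average untreated 2 rose and 1 fell, with a median of 0.44. GABARAPL1, an ATG8-family protein of autophagosomes 40.3 kb away, rose from 63.2 ± 9.04 to 319 ± 35.7 TPM, a change of 2.32 ± 0.05 (SE; limma, adjusted p = 4.39e-14). Both were lowest in PAR under each treatment, as OLR1 was, but by less, and untreated the next line was 1.07 times as high for TMEM52B. SLCO4A1, on another chromosome, was also lowest in PAR untreated and with E. The share of all genes that were lowest in PAR was not counted. With E, GABARAPL1 was 236 TPM in PAR and between 297 and 367 TPM in the other lines, and TMEM52B was 7.70 TPM in PAR and between 15.3 and 26.2 TPM in the others. The farther genes were ENSG00000256594 (0.44, rose) and MAGOHB (-0.87, fell), an exon junction protein.

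OLR1 sits among the C-type lectin-like genes of the natural killer gene complex, and of the 17 genes listed for that cluster OLR1 alone passed the filter. With a lower filter of a mean of at least 1 TPM, 5 others could be tested, and 5 of 5 rose with E and 0 fell, where 35.5% of all 14111 genes past that filter were called higher and 36.3% lower. KLRD1 and KLRK1 were under 1 TPM on average untreated and passed only through the treated libraries, where they were higher. CLEC7A, the beta-glucan receptor Dectin-1, lies 28.0 kb from OLR1 and rose from 1.56 ± 0.871 to 10.45 ± 3.53 TPM (n = 10), a log2 change of 2.18 (limma, adjusted p = 3.67e-08). CLEC2D rose from 4.0 ± 1.2 to 9.39 ± 3.28 TPM and CLEC2B from 1.13 ± 0.397 to 4.24 ± 1.23 TPM (changes of 1.03 and 1.28). KLRD1 and KLRK1, receptor genes of natural killer cells, were under 3 TPM throughout and changed by 0.44 and 0.30. Of the other 11 genes, 2 were at 0 in every library and the rest stayed at or below 2.38 TPM.

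Near NKAIN4 and SLCO4A1 no other gene past the filter moved as far, which the choice of the 3 by very large changes made likely beforehand. Over all genes, 36.4% were called higher and 42.6% lower. Of 17 genes near NKAIN4, 6 rose and 7 fell with a median change of -0.05, and its nearest neighbours YTHDF1, a reader of N6-methyladenosine, and ARFGAP1, a Golgi GTPase-activating protein, rose by 0.65 ± 0.05 and 0.63 ± 0.06 (SE). BIRC7, an inhibitor of apoptosis gene 0.277 kb from NKAIN4, was under the filter. It was named after its values were seen, and its level was between 0.284 and 1.66 TPM untreated, between 8.81 and 16.5 TPM with E and between 4.47 and 14.7 TPM with EA. Of 12 genes near SLCO4A1, 1 rose and 7 fell with a median of -0.17. MRGBP, of the NuA4 histone acetyltransferase complex, fell by 0.50 on the log2 scale, and RPS21, a ribosomal protein gene, by 0.17 (limma, adjusted p = 0.0299, and 0.174 with library medians centred). MRGBP, OGFR, TCFL5, DIDO1 and GID8 lie between SLCO4A1 and NKAIN4 and are counted for each. Between EA and E, 0 of the 28 genes near one or more of the 3 were called (limma), and 8 had an unadjusted p under 0.05, as did 20.9% of all 9085 genes.

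**Figure D4:**
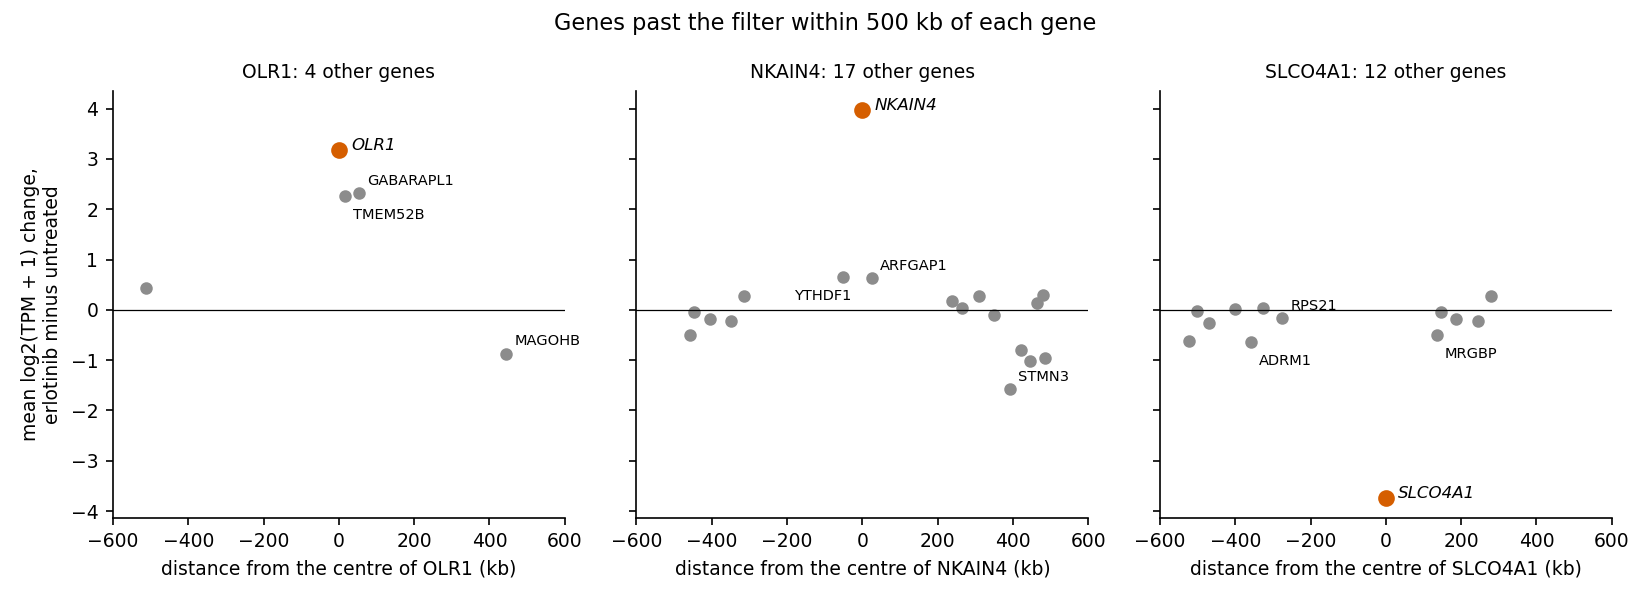
Mean change from untreated to erlotinib (log2(TPM + 1), 10 lines) of the genes past the filter within 500 kb of OLR1, NKAIN4 and SLCO4A1, against the distance between gene centres in kb. Orange points are the 3 genes themselves. TMEM52B and GABARAPL1 lie at 2.26 and 2.32 beside OLR1, and the genes near NKAIN4 and SLCO4A1 lie between -1.57 and 0.65.

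Relatives of the 3 genes that passed the filter had smaller changes, as nearly any gene would, since the 3 were chosen for very large ones. Of the other 10 SLCO transporters, 2 passed the filter. SLCO1B3 fell from 34.0 ± 6.35 to 22.2 ± 3.42 TPM, a change of -0.59 (limma, adjusted p = 3.83e-05), and SLCO3A1 was 39.9 ± 5.38 TPM untreated and 37.7 ± 3.60 with E (change -0.07, limma, adjusted p = 0.186). SLCO2A1, a prostaglandin transporter, was tested only under the lower filter and fell from 3.97 ± 1.37 to 1.12 ± 0.504 TPM. SLCO1A2 was 0.867 ± 0.422 TPM untreated and 2.65 ± 1.20 TPM with E, and it passed the lower filter only through the treated libraries, where it was high. SLCO6A1 was listed at 0 in all 29 libraries. The other NKAIN genes were at most 0.469 TPM in any library, so NKAIN4 was the one member of its family with a level above 1 TPM.

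Of the sodium pump subunits and FXYD modulators, 4 of the 14 listed passed the filter, and 3 fell and 1 rose with E, with a median of -0.43. Over all genes, 42.6% were called lower and 36.4% higher. The beta subunits ATP1B1 and ATP1B3, of the class that the NKAIN family interacts with, fell by 0.49 and 1.53 on the log2 scale. ATP1B3 went from 77.9 ± 4.64 to 26.5 ± 3.29 TPM. FXYD3, a modulator of the pump, rose from 36.0 ± 9.29 to 81.1 ± 21.0 TPM (1.15), and FXYD5 fell by 0.36.

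Other scavenger and lipoprotein receptors went both ways. Of 15 listed, 6 passed the filter, and 4 rose and 2 fell with a median of 0.54, where 36.4% of all genes were called higher and 42.6% lower. CXCL16, a scavenger receptor and chemokine, rose from 71.6 ± 4.59 to 153 ± 8.23 TPM (1.09). LRP1 rose by 1.07, SCARA3 by 0.70 and SCARB2, a lysosomal protein, by 0.38. CD68 fell by 0.69 and SCARB1, the HDL receptor, by 0.36. The classical macrophage scavenger receptors MSR1, CD36 and MARCO were under the filter, at most 7.34 TPM for MSR1, 2.23 for CD36 and 1.46 for MARCO.

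Of the transporters that share substrates with SLCO4A1, 2 of 9 passed the filter and both rose, where 36.4% of all genes were called higher. With the lower filter, 3 of 5 rose and 2 fell, where 35.5% of all genes past it were called higher and 36.3% lower. SLC7A8, 1 of the 3, passed it only through the treated libraries, where it was higher. SLC7A5 and SLC3A2, the light and heavy chains of the LAT1 amino acid and thyroid hormone transporter, went from 778 ± 76.6 to 1619 ± 279 TPM (1.03) and from 557 ± 65.1 to 922 ± 141 TPM (0.72). ABCC4, an exporter of prostaglandins among others, was tested under the lower filter only and fell from 11.9 ± 1.08 to 8.23 ± 0.936 TPM. Between EA and E, 0 of the 14 related genes of these 6 lists were called (limma) and 3 had an unadjusted p under 0.05, against 20.9% of all genes. The lowest adjusted p was 0.0599, for ATP1B3.

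**Figure D5:**
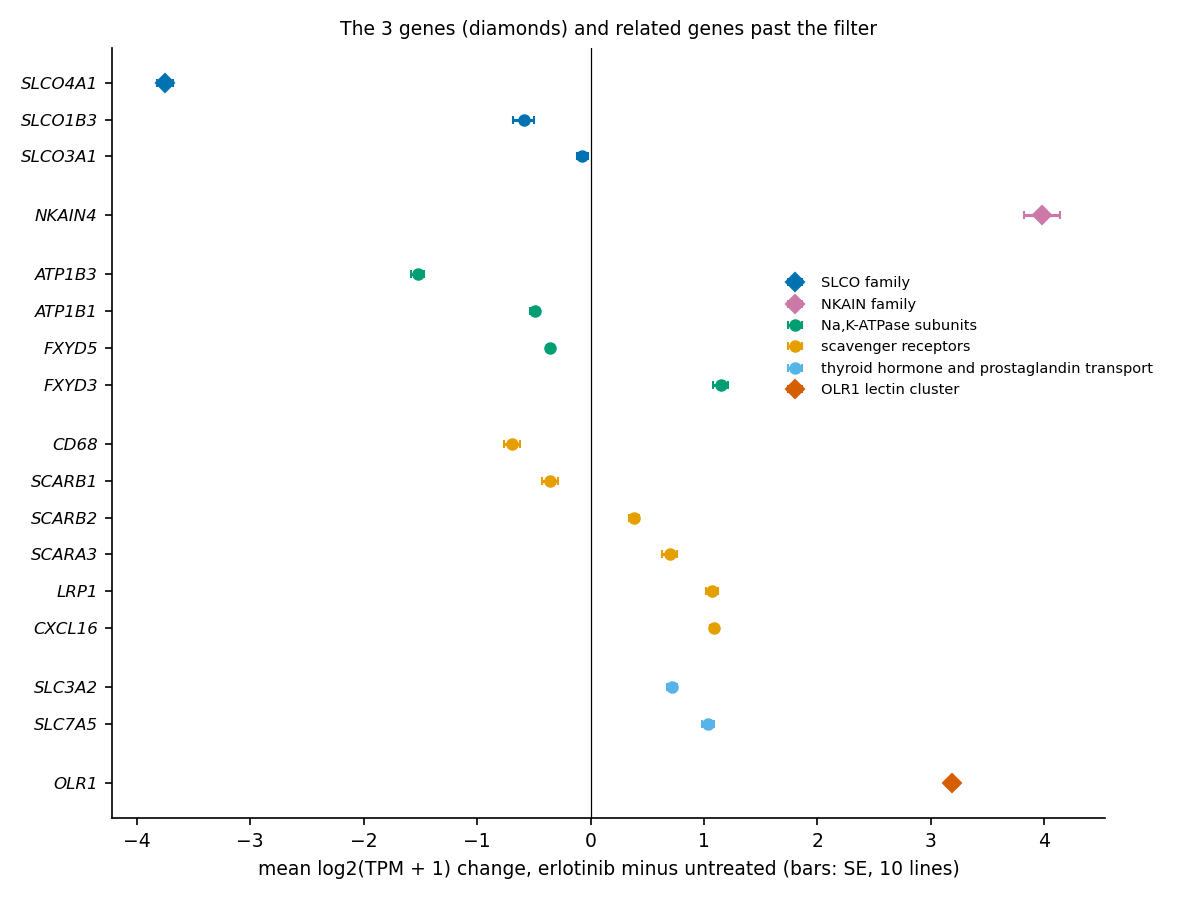
Mean change from untreated to erlotinib (log2(TPM + 1), bars are SE over 10 lines) of the 3 genes (diamonds) and of the related genes past the filter, by list. The 3 genes, chosen for very large changes, lie at 3.98, 3.19 and -3.75, and the related genes between -1.53 and 1.15.

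Since OLR1 is known from endothelial cells and macrophages, markers of both were read in the same libraries. The 6 endothelial markers summed to between 8.37 and 16.1 TPM untreated and between 4.15 and 11.5 TPM with E, most of it PECAM1 and EMCN, and 3 of the 6 were under 1 TPM in every library. The 7 macrophage markers summed to between 3.66 and 7.88 TPM untreated, between 10.4 and 16.8 TPM with E and between 11.3 and 16.6 TPM with EA. Most of that sum was CSF1R, which went from 4.09 ± 1.20 to 12.1 ± 2.08 TPM, while AIF1 and TYROBP were listed at 0 in 27 of 29 libraries and CD14 reached at most 0.689 TPM. Their part in the OLR1 level was not tested.

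The genes most like each of the 3 across the 29 libraries were found by Pearson's r of log2(TPM + 1) over the 9085 genes, where the treatments set most of the value. For OLR1 they were MYL9 (r = 0.99), RND1 (0.99) and TUBA1A (0.99), an alpha tubulin. For NKAIN4 they were KRT7 (0.99), SOX4 (0.99) and LRP10 (0.98), and for SLCO4A1 they were PHLDA1 (0.99), RFC3 (0.99) and PAICS (0.99). With the mean of each treatment subtracted, so that the differences between lines remain, the closest to OLR1 were GSTM4 (r = 0.96), CD74 (0.96) and PANX1 (0.96), and without the 3 PAR libraries these fell to 0.76, 0.59 and 0.66 over 26 libraries. PAR with E had 28.5 TPM of CD74, the invariant chain, against a mean of 202 ± 65.5 TPM over the lines. The closest to NKAIN4 were KIF3C (0.81), C1RL (0.79) and ACADVL (0.77), and the closest to SLCO4A1 were CSE1L (0.69), MOCS2 (0.68) and TRA2B (0.66). Among the 3 genes themselves, r with the treatment means subtracted was 0.60 between OLR1 and NKAIN4, 0.25 between OLR1 and SLCO4A1 and -0.02 between NKAIN4 and SLCO4A1, and without PAR it was 0.41, 0.30 and -0.04. These values share libraries and lines and carry no test.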

How the data were processed

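PolyA RNA of 10 PC9 lines was sequenced in 29 libraries (10 UT, 10 E and 9 EA), grouped by the sample labels. The authors deposited TPM per transcript, in which every library sums to the same total, so depth is not known and errors are those between lines. The submitters' processing notes name kallisto and GRCh38. Versions, annotation and strand handling are not given in the sources used here. By identifier, 169797 of 188753 transcripts were matched to GENCODE release 29 and summed to 35579 genes. The other 18956 were not used. The study's methods remove genes under 10 TPM, applied here as a mean of at least 10 TPM over all libraries, which kept 9085 genes. Tests used log2(TPM + 1) in limma 3.58.1 under R 4.3.3, with lmFit, a trended eBayes and the line as a block. P-values were adjusted after Benjamini and Hochberg with a threshold of 0.05, for E against UT (10 lines) and EA against E (8 lines). The libraries of a line are pairs because they are the same cells. Deviations of paired libraries from their group means correlated with r from 0.096 to 0.60 (UT and E) and from 0.12 to 0.74 (E and EA).

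The members and the gene lists were chosen with earlier results of these data known. Some list genes and one sequence are not reported here. Besides the members, the genes named were the list genes past the filter, the genes next to or overlapping a member, the 3 most alike by each measure, and the neighbours in rank. Alternatives were another pseudocount, other filters, median centring, quantile normalization, no block, the KD pair included, protein-coding transcripts alone, mitochondrial genes left out, a test against a log2 change of 1, exact sign flips and leaving out each line. In simulated tables of 9085 genes with 200 changed by 0.5 (log2), limma called 181 of them and 13 unchanged genes for EA against E. The simulated noise was independent between genes, so errors that many genes share within a library were left out. These counts therefore cannot tell how the test behaves on the real libraries. The coordinates are of GENCODE release 29 on GRCh38. Other tools were Python 3.11.15, pandas 2.3.3, numpy 2.4.6 and matplotlib 3.10.9.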

Additional observations from a re-analysis of the deposited data

Results flagged for a closer look

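Levels and changes of the 3 genes and the shares of 4 of their transcripts were screened for a line that stood apart, 27 groups in all, and 4 passed the 95% critical value of Dixon's test, where chance gives about 1 in 20. OLR1 in PAR stood apart from the other lines in each treatment, at 5.50 TPM untreated, 61.9 TPM with E and 61.1 TPM with EA. The gap to the next line was 0.49 of the whole range untreated, 0.66 with E and 0.58 with EA, each above the critical value. The share of SLCO4A1-201 in KO with E was 0% of the gene, with a gap of 0.52 of the range, in a library where the gene as a whole was 2.74 TPM.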

How the results depend on the processing

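The lack of a read depth, the single library per line and treatment and the antisense genes that share exons with NKAIN4-203 and SLCO4A1 limit every value. From UT to E the members kept their direction in all 57 values under the alternatives, and 56 moved by less than the SD between lines. The exception was SLCO4A1 with a pseudocount of 0.1 (-4.08). Most of these outcomes were fixed beforehand. Other filters and a fit without the block leave a mean change as it is, and leaving out a single line can shift it only a little. The members were also chosen by these changes, so the values are a description and lend no support. Leaving out a line gave 3.15 to 3.22 for OLR1, 3.90 to 4.08 for NKAIN4 and -3.80 to -3.71 for SLCO4A1.

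From E to EA, leaving out a line gave -0.047 to 0.011 for OLR1, -0.32 to -0.15 for NKAIN4 and 0.36 to 0.50 for SLCO4A1, none of which passed the threshold. OLR1 turned positive without WT (0.00982) and without Y726F (0.0108). SLCO4A1 passed with protein-coding transcripts alone (0.38) and by unadjusted exact sign flips (0.43, p = 0.0391). Both reuse the E libraries by which it was chosen. The member values without the replicate block were the same, with adjusted p of 0.989 for OLR1, 0.703 for NKAIN4 and 0.224 for SLCO4A1.

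Counts over all genes moved more. Between EA and E, 171 genes were higher and 43 lower. The counts were 92 and 12 with at least 10 TPM in any library, 58 and 9 with a mean of at least 1 TPM, 5 and 1 with no filter, 9 and 0 with no replicate block and 98 and 22 with the KD pair. Median centring gave 133 higher and 72 lower, and quantile normalization 115 and 43. Leaving out a line gave 10 to 146 higher and 0 to 42 lower, with moves over 1.5 times without PAR (49 and 6), WT (110 and 21), Y634F (10 and 0), Y643F (18 and 0), Y698F (48 and 7), Y750F (62 and 14) and Y821F (83 and 11). The cause was not tested. Between E and UT, 3309 were higher and 3866 lower. The number higher was 5008 with a mean of at least 1 TPM and 5500 with no filter, where more genes are tested, and a test against a log2 change of 1 called 328 higher and 405 lower. No block gave 3135 and 3676. Leaving out a line gave 3200 to 3428 higher and 3782 to 3851 lower. For 27 list or neighbouring genes, 514 of 540 values between E and UT kept their direction and their call or lack of one. In 25 values the call was lost, among them SLCO1B3, FXYD3 and CXCL16 in the test against a log2 change of 1. The direction changed in 1 value, as SLCO3A1 turned to 0.12 with protein-coding transcripts alone.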
